A study of Mus musculus with 32 samples.

Results

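The H3K27me3 peak lists of 2 libraries from double-mutant cells, which carry an Asxl1 guide and the CSF3R T618I receptor, were compared with those of 2 control libraries. These are 4 of the 32 samples in the series, taken by their titles and genotype labels. The study profiled H3K27me3, H2AK119ub and H3K4me1 by CUT&Tag, in which an antibody directs a transposase to the marked chromatin, in the HoxB8 line. These are mouse bone marrow progenitors immortalised by an estrogen-dependent HoxB8, and estrogen had been withdrawn from every culture for 48 h, which allows such cells to mature. The double-mutant cells were labelled with the B2 guide against Asxl1 and the vector pMICH-CSF3R-T618I. The single mutants carried either the B2 guide with pMICH-Empty (3 H3K27me3 libraries) or a non-targeting guide with pMICH-CSF3R-T618I (3 libraries). Control cells carried the non-targeting guide with pMICH-Empty (2 libraries). All groups thus share the HoxB8 transgene, a guide and a pMICH vector. Asxl1 was targeted with 1 named guide, and neither the number of clones nor whether the replicates were separate cultures is stated in the labels, so p-values measure only the spread between these libraries.

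H3K27me3 is laid down by Polycomb repressive complex PRC2 and marks silent genes, often in broad domains over the Hox clusters and other regulators of development. H2AK119ub is laid down by PRC1 and removed by BAP1, a deubiquitinase that works with ASXL1, and each of the 2 Polycomb marks can recruit the other's complex. CSF3R is the receptor for granulocyte colony-stimulating factor, and T618I is a substitution that makes it signal without ligand.

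The peak lists give a start and an end for each peak and nothing else, so a library's measures are how many peaks it has, how wide they are and which bases they cover. At a gene, the measure was the fraction of a 10 kb window that lies in peaks, where 1 is a window covered throughout. The window was centred on the start site for 17492 of 21887 protein-coding genes, and on the better-covered gene end for the other 4395, which are without a start site in the promoter table used. Where a gene had several start sites, the one best covered on average over the libraries of all marks was taken. The 3 promoters with the largest increase and the 3 with the largest decrease in the double mutant among genes with a start site are shown here so that the sequence under the largest differences can be read. Each runs from 250 bases before the start site to 50 bases after it, in RefSeq coordinates and sequence of GRCm38.p6, with every CpG in capitals, since PRC2 targets in mammals are often rich in CpG.
Lamb3, chr1:193301744-193302043, plus strand: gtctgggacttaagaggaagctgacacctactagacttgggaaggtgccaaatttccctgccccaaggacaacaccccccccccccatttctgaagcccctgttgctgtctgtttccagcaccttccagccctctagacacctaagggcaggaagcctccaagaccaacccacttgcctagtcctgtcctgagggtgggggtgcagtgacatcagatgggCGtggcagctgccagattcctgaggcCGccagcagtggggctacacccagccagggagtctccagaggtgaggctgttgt
Nuak1, chr10:84440619-84440918, minus strand: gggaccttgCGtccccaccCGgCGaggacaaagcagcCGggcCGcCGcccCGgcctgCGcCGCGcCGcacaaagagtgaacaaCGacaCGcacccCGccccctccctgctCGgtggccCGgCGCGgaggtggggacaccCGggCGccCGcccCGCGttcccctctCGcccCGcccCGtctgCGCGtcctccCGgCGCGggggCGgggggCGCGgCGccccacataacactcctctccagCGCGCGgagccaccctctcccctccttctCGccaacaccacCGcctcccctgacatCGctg
Smad3, chr9:63757945-63758244, minus strand: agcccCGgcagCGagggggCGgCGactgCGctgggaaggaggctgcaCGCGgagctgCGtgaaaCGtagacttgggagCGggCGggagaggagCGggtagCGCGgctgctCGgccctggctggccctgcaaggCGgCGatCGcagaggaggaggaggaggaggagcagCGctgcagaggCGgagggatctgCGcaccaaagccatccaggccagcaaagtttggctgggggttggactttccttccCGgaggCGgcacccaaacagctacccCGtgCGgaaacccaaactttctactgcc
Prdm13, chr4:21685914-21686213, minus strand: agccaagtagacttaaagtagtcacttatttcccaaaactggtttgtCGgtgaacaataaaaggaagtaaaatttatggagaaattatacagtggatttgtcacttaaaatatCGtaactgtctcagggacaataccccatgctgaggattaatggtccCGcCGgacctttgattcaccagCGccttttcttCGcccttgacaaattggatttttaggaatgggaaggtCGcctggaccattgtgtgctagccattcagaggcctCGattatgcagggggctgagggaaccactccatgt
Evx1, chr6:52313248-52313547, plus strand: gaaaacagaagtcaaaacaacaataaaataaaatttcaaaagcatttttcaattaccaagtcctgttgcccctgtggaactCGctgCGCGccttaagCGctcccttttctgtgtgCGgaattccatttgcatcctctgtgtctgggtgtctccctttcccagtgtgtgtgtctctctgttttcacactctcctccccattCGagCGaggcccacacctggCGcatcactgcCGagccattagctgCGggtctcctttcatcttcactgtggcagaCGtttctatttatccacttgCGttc
Hoxa9, chr6:52227321-52227620, minus strand: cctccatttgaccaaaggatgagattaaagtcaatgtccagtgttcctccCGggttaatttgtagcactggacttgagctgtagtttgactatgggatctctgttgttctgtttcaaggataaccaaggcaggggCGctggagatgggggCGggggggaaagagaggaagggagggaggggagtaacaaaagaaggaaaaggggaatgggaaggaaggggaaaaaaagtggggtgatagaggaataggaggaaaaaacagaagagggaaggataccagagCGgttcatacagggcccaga
Peaks covered 100% and 64.3% of the Lamb3 promoter in the double-mutant libraries and 0% in both control libraries. The Nuak1 and Smad3 promoters were covered throughout in both double-mutant libraries and nowhere in the controls. At Hoxa9 the order was the opposite, with 0% of the promoter in peaks in both double-mutant libraries and 100% in both controls. Evx1 had 49.0% and 0% in the double mutant against 100% in both controls, and Prdm13 had 100% and 29.0% against 100% in both controls. CpG number did not separate the 2 directions: Lamb3 holds 2, Nuak1 41, Smad3 25, Prdm13 8, Evx1 12 and Hoxa9 4. Over the tested start sites, the median was 19 CpGs where both double-mutant libraries lay above both controls (250 promoters), 21 where both lay below (1105) and 20 over all 2589, against 13 over all 17492. The motif searched was CG, which reads the same on both strands, and 94.8% of the 17492 promoters hold at least 1.

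Some libraries stand apart and bear on what follows. Peaks numbered 16948 and 18520 in the double-mutant libraries and 10165 and 14280 in the control libraries, and read depth is not given in the sources used here. Among the Asxl1 single-mutant libraries, covered length was 4.73, 53.0 and 12.4 Mb, so replicate 2 differs from the others by several fold. In the test of single genes these libraries enter the estimate of spread, the coverage filter and the choice of window position. The test is therefore also given with replicate 2 left out of the fit, on the same 3513 windows. Its part in choosing those windows stays. Chromosome 1 differs by guide in every mark, as described below, and the main results are also given without it.

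The double mutant had more, shorter H3K27me3 peaks over a similar total length. Covered length was 19.2 and 14.2 Mb in the double mutant and 15.9 and 22.7 Mb in control, and the groups overlapped (16.7 ± 3.55 against 19.3 ± 4.82 Mb, SD, n = 2 each; exact permutation p = 0.667, two-sided). Mean peak width was 1134 and 766 bp in the double mutant against 1563 and 1590 bp in control. Both double-mutant libraries thus lay below both controls, with a log2 ratio of -0.73 (exact permutation p = 0.333, two-sided, n = 2 each, which is the smallest p that 6 arrangements allow). Median width was 450 and 250 bp in the double mutant, against 700 bp in both controls. Leaving out either library kept the log2 ratio of the mean width between -1.04 and -0.48.

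The shift lay at both ends of the width range. Peaks of 200 to 400 bp numbered 8051 and 11751 in the double mutant and 3959 and 5574 in control. Peaks over 5 kb numbered 517 and 229 against 643 and 957. Wide peaks held 20.4% and 11.8% of the covered length in the double mutant and 31.9% and 34.8% in control, a difference of -17.2 percentage points that exceeded the spread in either group. Between these classes, from 450 to 5000 bp, the numbers of the 2 groups overlapped. The single widest peak went the other way, at 70250 and 87300 bp in the double mutant and 25550 and 46550 bp in control. The longest region found in all 4 libraries, chr8:123537351-123624750, lies 693 bp from Gas8, and peaks covered 85250 and 87300 bp of it in the double mutant and 71900 and 85400 bp in control.

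**Figure D1:**
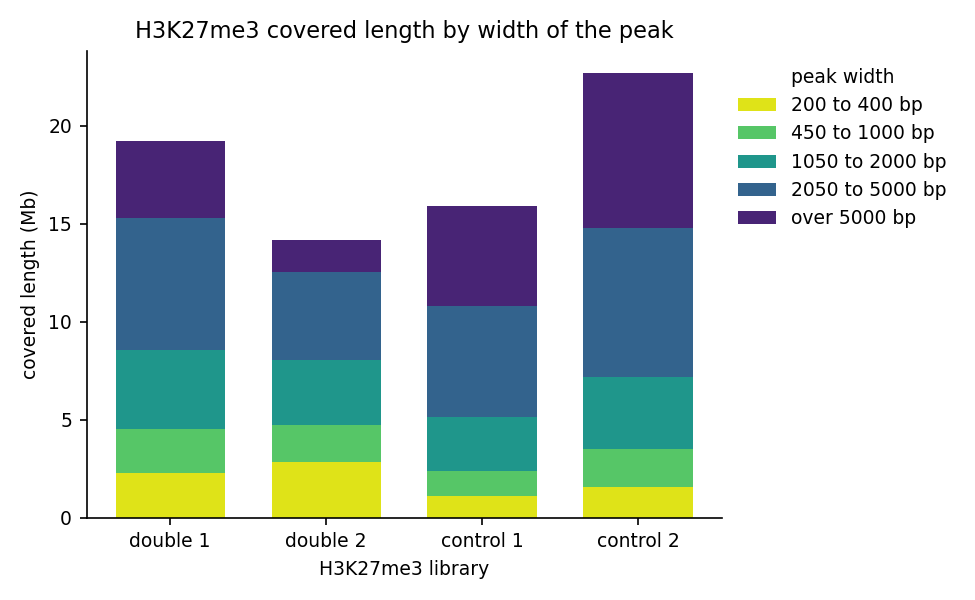
Covered length (Mb, y axis) in each of the 4 H3K27me3 libraries (x axis), stacked by the width class of the peak. The 2 double-mutant bars have more length in peaks of 200 to 400 bp and less in peaks over 5000 bp than the 2 control bars, while the total heights overlap.

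Coverage also sat differently relative to genes. Gene windows of 10 kb held 48.5% ± 1.78 of the covered length in the double mutant and 56.2% ± 4.07 in control (SD, n = 2 each), and the 2 groups did not overlap. Gene bodies outside those windows held 24.3% against 20.4%, and sequence outside both held 27.3% against 23.4%. With windows of 2 kb the shares were 21.4% in the double mutant and 21.6% in control, and the groups overlapped.

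Peaks of the 4 libraries were joined where they touched into 30240 regions. Of these, 2287 (7.56%) had a peak in both double-mutant libraries and in neither control library, and 1128 (3.73%) had one in both controls and in neither double-mutant library. All 4 libraries had a peak in 4758 regions (15.7%), which spanned 19.5 Mb, whereas the double-only regions spanned 1.94 Mb and the control-only regions 1.26 Mb. Most regions were seen in part of a group: 12529 had a peak in 1 double-mutant library alone and 4943 in 1 control library alone. The 2 double-mutant libraries shared 0.379 of their joint covered bases (Jaccard index) and the 2 controls 0.552. Between the groups the index was 0.418 and 0.427 for double-mutant replicate 1 and 0.337 and 0.318 for replicate 2, so double-mutant replicate 1 overlapped both controls more than it overlapped its own replicate. A double-only region is therefore a description of these 4 libraries. Where the rule rested on 1 library of a group, the counts moved by several fold: without double-mutant replicate 1 there were 10049 double-only and 2174 control-only regions, and without replicate 2 there were 7392 and 1561. Without control replicate 1 the order turned, with 2500 double-only and 5013 control-only regions, and without control replicate 2 there were 3349 and 2654.

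Double-only regions were narrower than control-only regions and farther from start sites, and in both they were near the values over all regions. Their median width was 450 bp, against 750 bp for control-only regions, 3250 bp for regions in all 4 and 350 bp for every region. The median distance to the nearest start site was 30.7 kb for double-only regions, 15.6 kb for control-only regions, 8.61 kb for regions in all 4 and 25.8 kb for every region. Within 5 kb of a start site lay 14.3%, 29.9%, 44.5% and 20.3% of them, listed in the same way. Among regions of 200 to 400 bp the median distance was 33.5 kb for double-only and 20.9 kb for control-only regions, and among those over 1000 bp it was 27.6 against 11.4 kb. Regions in all 4 were nearest only among those over 1000 bp (7.13 kb), and lay at 24.4 kb among those of 200 to 400 bp and 23.6 kb among those of 450 to 1000 bp, where control-only regions lay at 20.9 and 16.4 kb.

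The longest double-only regions are named here by the nearest protein-coding gene. The longest spanned 10650 bp at chr18:82905201-82915850 in Zfp516, a zinc-finger transcription factor known from brown fat. Peaks covered 9100 and 6600 bp of it in the double mutant and 0 bp in both controls. Second in length was chr18:9485401-9492700, 35246 bp from Ccny, with 7000 and 6100 bp against 0 bp in both controls. Next came chr10:84438101-84444450, which contains the start of the AMPK-related kinase gene Nuak1 shown above, with 6350 and 3600 bp. Then came chr1:88244751-88250450 in Mroh2a, of whose 5700 bp 100% and 36.0% lay in peaks in the double mutant. H2AK119ub peaks covered 5700 bp of the Mroh2a region in both double-mutant libraries, and 5700 and 5550 bp in the controls, whereas at the Zfp516 region they covered 8100 and 7000 bp against 200 and 0 bp.

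The longest control-only regions each overlapped a gene. They were chr11:70701401-70711800 in Kif1c, a kinesin motor gene (9050 and 7450 bp in control), chr7:3411101-3420200 in Cacng8, which encodes an auxiliary subunit of AMPA receptors (5750 and 9100 bp), chr4:41506451-41515000 in 1110017D15Rik (1400 and 8550 bp) and chr8:70082901-70090450 in Hapln4, which encodes a link protein of brain extracellular matrix (7100 and 7250 bp). None of the 4 held a peak base in either double-mutant library. In the CSF3R single mutant all 4 carried peaks in every library, from 3450 bp upwards.

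Within the 4758 regions common to all 4 libraries, the mark covered less and was in more pieces. Covered length there was 12.8 and 9.45 Mb in the double mutant and 13.4 and 16.5 Mb in control. The mean number of separate peaks per region was 1.26 and 1.34 against 1.22 and 1.11. For the 1243 of these regions over 5 kb, 67.8% and 50.3% of the length was covered in the double mutant and 75.1% and 89.2% in control. Both double-mutant libraries lay outside the range of the controls in each of these 3 measures.

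Wide domains were compared in both directions. Stretches over 5 kb covered in both control libraries numbered 549, and the double-mutant libraries covered 78.1% and 61.4% of their 4.31 Mb. Only 60 of the 549 (10.9%) were less than 50% covered in both double-mutant libraries, and 5 and 4 had no coverage there. Stretches over 5 kb covered in both double-mutant libraries numbered 162, and the controls covered 89.7% and 95.4% of their 1.17 Mb. Since each set was chosen by its own group's coverage, the other group's lower coverage of it is partly fixed by that choice, and the 2 directions are given for that reason side by side. The Asxl1 single-mutant libraries covered 30.8%, 95.7% and 63.6% of the control domains, and the CSF3R single-mutant libraries 98.4% to 99.6%.

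A whole chromosome took a larger part of the mark. Chromosome 1 held 14.5% and 11.7% of the covered length in the double mutant and 6.01% and 6.18% in control, a ratio of 2.15. Peaks on it numbered 2354 and 2002 against 611 and 889. Counted in bins of 10 Mb and scaled to each library's number of peaks, 19 of 20 bins were higher in both double-mutant libraries than in both controls, so the excess ran along the chromosome. Of the other chromosomes, 12 and 16 were also higher in both double-mutant libraries (3.73% and 3.81% against 3.70% in both controls, and up to 3.10% against up to 2.55%), and 11 of the 21 were lower. The shares are parts of the same total, so a larger share on chromosome 1 by itself lowers those of the others.

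The excess on chromosome 1 went with the Asxl1 guide and was seen in all 3 marks. For H3K27me3, the share of covered length on chromosome 1 was 11.7% to 14.7% over the 5 libraries with the guide and 5.70% to 6.18% over the 5 with the non-targeting guide. For H2AK119ub it was 11.1% to 12.2% against 5.13% to 5.72%, and for H3K4me1 8.09% to 9.30% against 6.28% to 6.75%. No library of either guide fell in the other's range in any mark. This pattern was noticed in the data and is given without a test. Peak lists hold no copy number, so more copies of chromosome 1 and more mark per copy cannot be told apart.

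**Figure D2:**
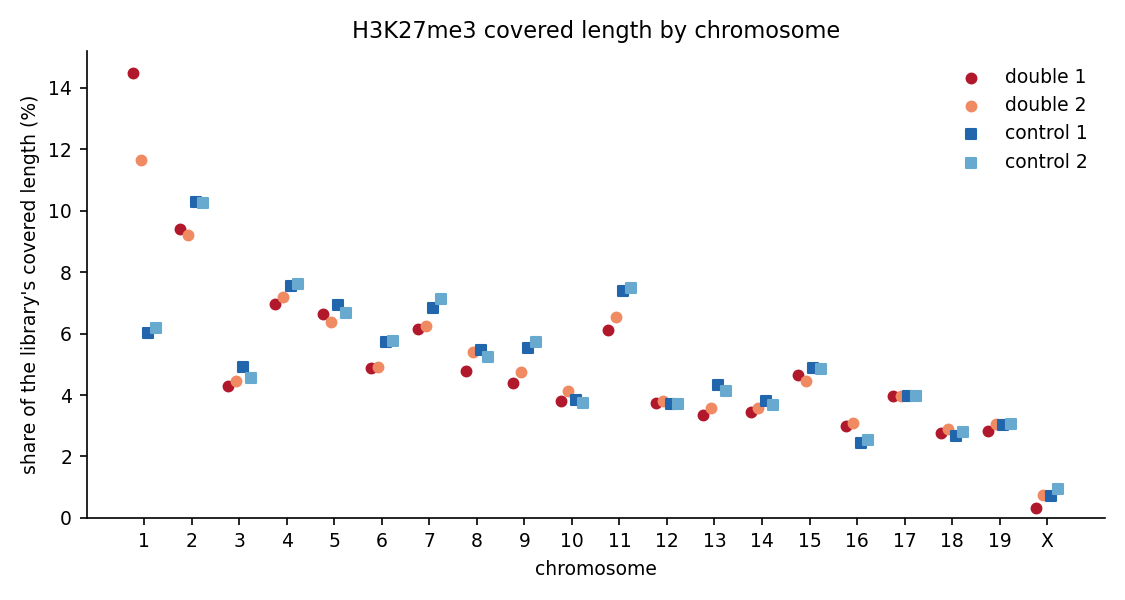
Share of each library's H3K27me3 covered length (%, y axis) on each chromosome (x axis), with circles for the 2 double-mutant libraries and squares for the 2 control libraries. On chromosome 1 the double-mutant libraries reach 14.5% and 11.7%, against 6.01% and 6.18% in control and no other chromosome has so large a ratio between the groups.

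Chromosome 1 contributed to the double-only regions but did not make up most of them. It held 482 of the 2287 double-only regions (21.1%) and 18 of the 1128 control-only regions (1.60%), against 10.9% of all regions. Without it, 1805 double-only and 1110 control-only regions were left, the log2 ratio of mean width was -0.74 and the share of length in peaks over 5 kb differed by -17.7 percentage points. The difference in the share inside gene windows was -5.96 points without chromosome 1, against -7.68 with it.

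H2AK119ub was present at most double-only regions in double-mutant cells. Of the 2287 double-only H3K27me3 regions, 67.4% and 54.4% overlapped an H2AK119ub peak in the double-mutant H2AK119ub libraries, and 27.2% and 27.5% in the control H2AK119ub libraries (exact permutation p = 0.333, two-sided, n = 2 each, the smallest possible). At control-only regions the shares were 30.2% and 19.3% in the double mutant and 26.9% and 26.4% in control (exact permutation p = 1, n = 2 each), and the groups overlapped. At regions in all 4 libraries the shares were 84.1% and 73.9% against 69.9% and 69.8%, and over every region 42.4% and 31.3% against 23.7% and 23.4%. Without chromosome 1 the double-only shares were 68.1% and 56.1% against 30.2% and 31.1%. The single mutants had H2AK119ub at 27.3% to 34.6% (Asxl1 guide) and 30.1% to 41.0% (CSF3R T618I) of the double-only regions.

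**Figure D3:**
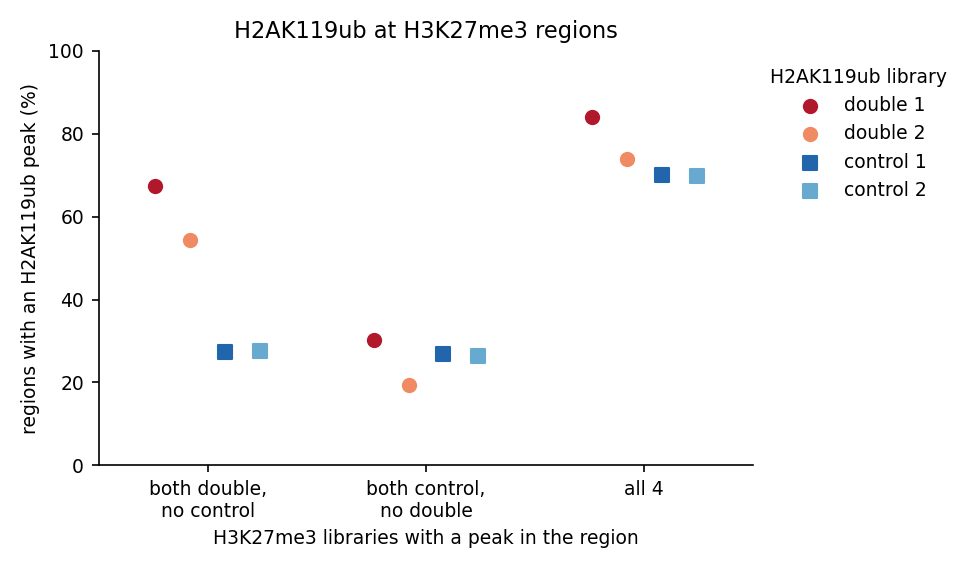
Share of H3K27me3 regions that overlap an H2AK119ub peak (%, y axis), by which H3K27me3 libraries had a peak in the region (x axis), with one point per H2AK119ub library (circles double mutant, squares control). At double-only regions the double-mutant libraries stand at 67.4% and 54.4%, above 27.2% and 27.5% in control, and at control-only regions the 2 groups overlap.

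A larger share of the H3K27me3 length lay inside H2AK119ub in the double mutant, while the shared length itself overlapped between the groups. Of the H3K27me3 covered length, 62.1% and 67.3% lay inside H2AK119ub peaks of the same genotype in the double mutant, against 54.3% and 46.1% in control, a difference of 14.5 percentage points (exact permutation p = 0.333, two-sided, n = 2 each). In Mb, the shared length was 11.9 and 9.55 in the double mutant and 8.63 and 10.5 in control. H2AK119ub itself covered 39.1 and 22.6 Mb in the double mutant and 21.2 and 19.9 Mb in control, and the part of this longer coverage in the overlap was not tested. Regions with H3K27me3 in 1 double-mutant library alone overlapped H2AK119ub in 30.3% and 19.3% in the double mutant and 9.16% and 9.14% in control. H3K4me1, a mark of enhancers, overlapped few regions of any class. It was at 5.20% and 3.85% of double-only regions in the double mutant and 5.51% and 5.03% in control. At control-only regions it was at 1.68% and 1.24% in the double mutant against 0.355% and 0.177% in control.

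The single mutants carried H3K27me3 at part of both region classes. Double-only regions had a peak in 33.7%, 43.1% and 51.5% for the CSF3R libraries and in 8.40%, 68.9% and 26.1% for the Asxl1 libraries. Control-only regions had one in 75.5%, 79.3% and 87.9% for the CSF3R libraries and in 10.4%, 87.8% and 34.1% for the Asxl1 libraries. Over all 30240 regions the shares were 43.6%, 49.1% and 56.5% for the CSF3R libraries and 15.4%, 67.9% and 29.8% for the Asxl1 libraries. Double-only regions were thus below that level in every single-mutant library but Asxl1 replicate 2. That level includes regions shared by every double-mutant and control library, of which 69.1% to 99.8% had a peak across the single-mutant libraries. Regions in none of the double-only, control-only and shared classes had a peak in 31.2%, 37.4% and 46.2% for the CSF3R libraries. For the Asxl1 libraries they had one in 4.78%, 59.8% and 16.8%. Double-only regions were above these values in every single-mutant library. Within each single mutant the shares ran in the order of covered length (31.3, 34.1 and 42.2 Mb in the CSF3R libraries).

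At single genes, windows entered the test if 2 or more of the 10 H3K27me3 libraries covered 0.2 of them or more, and the 3513 that did were fitted with limma over all 4 groups. Windows low in every group are thus left out of the counts that follow. None passed an adjusted p of 0.05 for the double mutant against control (0% higher and 0% lower, Benjamini-Hochberg), and 323 had an unadjusted p under 0.05, of which 73 were higher and 250 lower. Without Asxl1 replicate 2, 44 windows were higher (1.25%) and 223 lower (6.35%) at an adjusted p under 0.05. Both double-mutant libraries lay above both controls in 348 windows (9.91%) and below both in 1530 (43.6%), and the median difference was -0.075. On chromosome 1 the split was the opposite, with 63 of 241 windows above (26.1%) and 27 below (11.2%), against 285 (8.71%) above and 1503 (45.9%) below among the 3272 elsewhere.

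Most Hox genes and other regulators of development kept some mark in the window, with less of the window covered. In the Hox list, which holds the transcription factors that set position along the body axis, 35 of 39 genes were tested, and 0 lay above and 25 (71.4%) below both controls. Their mean fraction was 0.344 and 0.305 in the double mutant against 0.549 and 0.638 in control. Double-mutant replicate 1 had more covered length than control replicate 1 over the genome and less at these genes. Of the 35 windows, 33 (94.3%) held at least some peak base in all 4 libraries, against 76.5% of all tested windows. Any base in the window counts here, so peaks at a given place in it, such as the Hoxa9 promoter above, can still be absent. Of the 35, 0 passed the limma test with all libraries and 12 were lower without Asxl1 replicate 2.

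The other regulators ran the same way. Of 69 homeobox and forkhead genes, all tested, 0 lay above and 50 (72.5%) below, with a median difference of -0.21. Of 56 tested T-box, Sox, GATA and zinc-finger regulators, 2 lay above and 40 (71.4%) below, with a median of -0.20. Mean fractions were 0.567 and 0.445 against 0.715 and 0.773 in control for the homeobox and forkhead list. For the T-box to zinc-finger list they were 0.437 and 0.316 against 0.569 and 0.619. Both lists thus also had more coverage to lose than all tested windows, and differences scaled to control coverage were not tested. Without Asxl1 replicate 2, limma called 16 of the homeobox and forkhead genes and 13 of the others lower, and none higher. Signalling ligands and antagonists did not share this split, with 5 above and 16 (35.6%) below among 45 tested and a median of -0.07, near that of all windows. The medians of the Hox, the homeobox and forkhead and the T-box to zinc-finger lists stayed negative under every alternative except the scoring of peaks as present or absent, where each was 0.

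Along the gene, the deficit at developmental regulators reached across the window. For the 103 genes of these 3 lists with a start site, 60.3% and 64.0% of bases in the first 500 bp after the start site lay in peaks in the double mutant, against 76.8% and 81.8% in control. In the 500 bp bin centred 4.75 kb before the start site the values were 33.3% and 17.5% against 45.5% and 52.1%. At 4.75 kb after it they were 32.8% and 22.6% against 48.3% and 55.9%. Both double-mutant libraries were below both controls at each of these 3 places. Over all 17492 start sites the corresponding values were 9.47% and 10.1% against 9.11% and 11.6% at the start site, where the groups overlapped. At 4.75 kb before it they were 1.72% and 0.997% against 1.49% and 2.11%, which also overlap. Between these places a deficit was seen over all start sites too. At 1.25 kb before the start site the values were 4.66% and 3.02% against 5.04% and 6.63%. At 1.25 kb after it they were 6.55% and 5.07% against 7.23% and 8.71%. H2AK119ub at the Hox windows averaged 0.441 and 0.278 in the double mutant and 0.342 and 0.298 in control, and these groups overlapped.

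**Figure D4:**
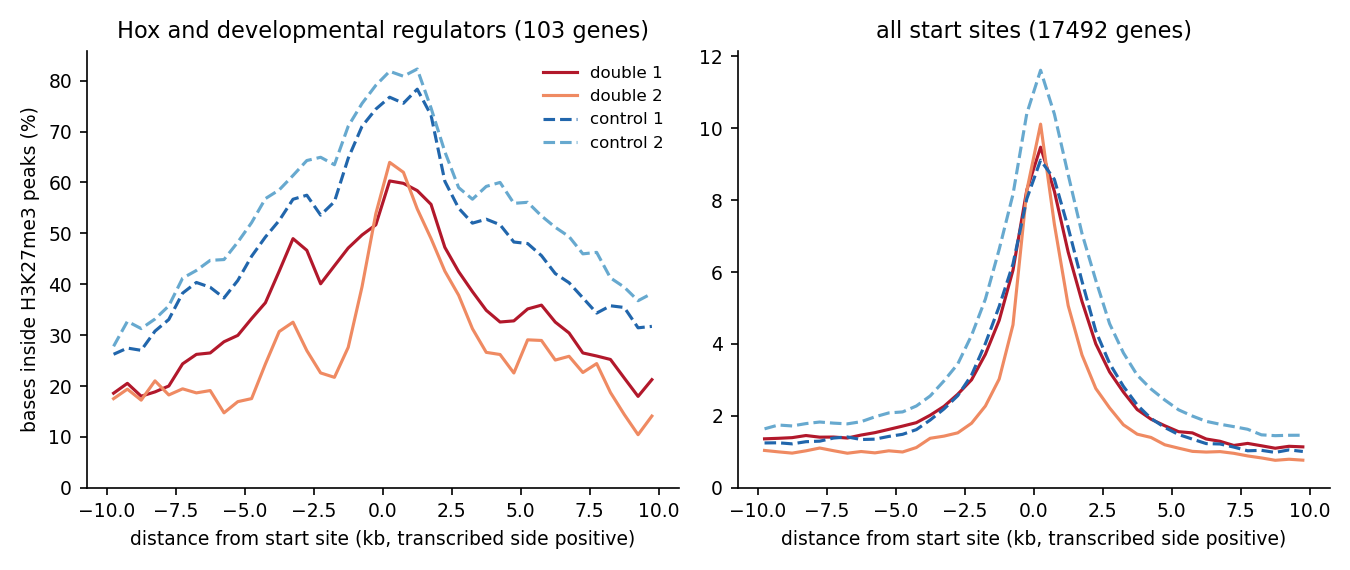
Share of bases inside H3K27me3 peaks (%, y axis) in 500 bp bins by distance from the start site (kb, x axis, transcribed side positive), for 103 Hox and developmental regulators and for all 17492 start sites. Solid lines are the 2 double-mutant libraries and dashed lines the 2 controls, and at the regulators both double-mutant lines run below both controls on either side of the start site.

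Hoxa9, which sustains self-renewal of myeloid progenitors, had a fraction of 0.367 and 0.332 in the double mutant and 1 in both controls. Both double-mutant libraries were thus well below a fully covered window (difference -0.651 ± 0.158 SE; limma adjusted p = 0.324 with all libraries and 0.00936 without Asxl1 replicate 2). The value rests on wide peaks: where every peak that overlaps an IgG peak was left out whole, the control window held none and the difference was 0.349, whereas with only the IgG bases removed it stayed at -0.651. Hoxa7 had 0.328 and 0.458 against 1 in both controls, and Hoxa11 had 0.449 and 0.275 against 0.895 and 1, with 0.045 as its difference without IgG-overlapping peaks. Evx1, a homeobox gene at the end of the Hoxa cluster, had 0.510 and 0.170 against 1 in both controls. Hoxb8, the gene from which the immortalising transgene derives, had 0.270 and 0.365 against 0.630 and 0.600. By cluster, 6 of 8 tested Hoxa, 6 of 9 Hoxb, 5 of 9 Hoxc and 8 of 9 Hoxd genes lay below both controls.

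Other large differences below control were at genes of varied function. Prdm13, a transcription factor of spinal cord neurons, had 0.255 and 0.130 in the double mutant against 0.856 in both controls (difference -0.664 ± 0.159 SE; limma adjusted p = 0.324, and 0.0158 without Asxl1 replicate 2). Sox1, a marker of neural progenitors, had 0.325 and 0.128 against 0.720 and 1. Ush1g, a scaffold protein of inner ear hair cells, had 0 in both double-mutant libraries against 0.724 and 0.589. Gata6, an endodermal and cardiac factor, had 0.265 and 0.310 against 0.759 and 0.999, and Foxc2, a factor of mesenchyme and lymphatic vessels, had 0.120 and 0.195 against 0.835 and 0.634. In each of these 5 the groups were separate, and each passed limma without Asxl1 replicate 2. Espn, which bundles actin in hair cells, had 0.4 and 0.285 against 0.932 and 1. Slc30a4, a zinc transporter, had 0.345 and 0.100 against 0.865 and 0.870.

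The largest increases were at genes with little or no mark in control, which the ranking by difference on a scale of 0 to 1 partly fixes. Zfp516 had 0.910 and 0.544 in the double mutant and 0 in both controls, with a difference of 0.727 ± 0.109 SE (limma adjusted p = 0.179, the lowest of the 3513, and 0.00908 without Asxl1 replicate 2). It had at most 0.025 in any Asxl1 library and 0 in every CSF3R library. Only the double-mutant libraries thus reached the 0.2 that the filter asks for, so the window was tested only because it is high in them. Its p-values and its rank among the 3513 are not independent of that. H2AK119ub at the same window was 0.749 and 0.639 in the double mutant and 0.020 and 0 in control, so both Polycomb marks covered most of the window in the double mutant and little or none of it in control. H3K4me1 there was 0 in both double-mutant libraries and 0.090 and 0.080 in control.

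At several other genes with more mark in the double mutant, the CSF3R single mutant also lay above both controls. Slc26a11, an anion transporter, had 0.789 and 0.520 in the double mutant against 0 and 0.080 in control, and 0.475 to 0.794 in the CSF3R libraries. Ccnd2, which encodes cyclin D2 and drives entry into the cell cycle, had 0.724 and 0.680 against 0.029 and 0.259, and 0.544 to 0.784 in the CSF3R libraries. Nuak1 had 0.635 and 0.360 against 0 in both controls, and Cds1, an enzyme of phospholipid synthesis, had 0.655 and 0.335 against 0 and 0.120. Pde10a, a cyclic nucleotide phosphodiesterase, had 0.690 and 0.620 against 0.250 in both controls, but with the gene's ends in place of its start site its difference was -0.205. Ldlrad4, which dampens TGF-beta signalling, had 0.385 and 0.530 against 0.035 and 0.030. Smad3, which carries the TGF-beta signal to the nucleus, had 0.550 and 0.355 against 0 in both controls. All of these passed limma without Asxl1 replicate 2 and none with all libraries.

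The remaining genes are given with their single-mutant values. Plxnc1, a semaphorin receptor gene, had 0.415 and 0.431 in the double mutant against 0 and 0.020 in control, with 0.095 to 0.110 in the CSF3R libraries. Lamb3, a laminin chain of epithelial basement membrane that lies on chromosome 1, had 0.736 and 0.396 against 0 and 0.040, with 0.116 to 0.466 in the CSF3R libraries and 0.865 in Asxl1 replicate 2. Rnf220, a ubiquitin ligase gene, had no coverage at the start site used in any of the 10 libraries. At its gene end it had 0.740 and 0.610 in the double mutant against 0 and 0.095 in control, and 0.735 to 0.760 in the CSF3R libraries. In the fit on gene ends it was the 1 window called (limma adjusted p = 0.0480).

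**Figure D5:**
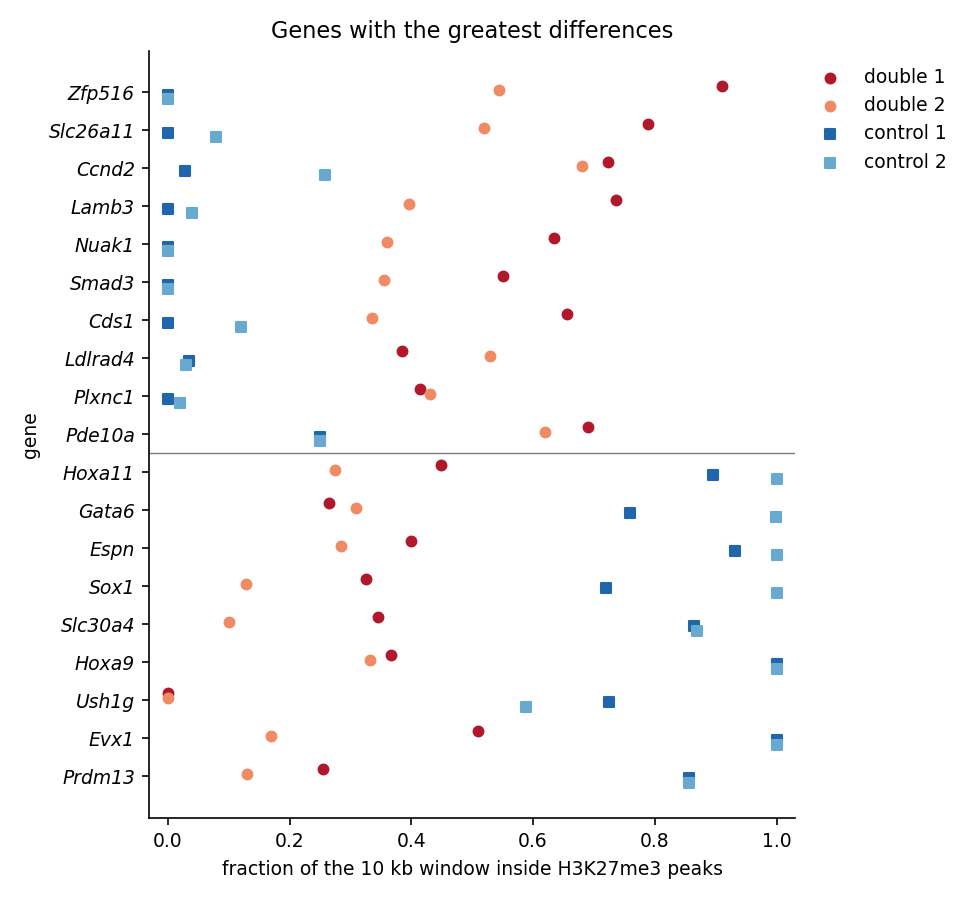
Fraction of the 10 kb window inside H3K27me3 peaks (x axis, 0 to 1) for the 10 genes with the largest increase and 9 of the 10 with the largest decrease (y axis), with circles for the 2 double-mutant libraries and squares for the 2 controls. The controls of the upper genes lie at 0.259 or below and those of the lower genes at 0.589 or above. The genes were ranked by the difference on this scale, so this contrast in part follows from the choice.

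Genes of blood cell identity were mixed. Of the 26 stem and progenitor genes 9 were tested, with 1 above (11.1%) and 5 below (55.6%). Over all tested windows the shares were 9.91% and 43.6%, so this list was near that level. Mecom, a leukaemia-associated stem cell factor, had 0.565 and 0.345 in the double mutant against 0.880 and 1 in control, and Gata2, a regulator of stem, mast and megakaryocyte cells, had 0 and 0.125 against 0.355 and 0.419. Hmga2, a chromatin protein of fetal stem cells, had 0.365 and 0.345 against 0 and 0.020. Mecom, Gata2 and Hmga2 each passed limma without Asxl1 replicate 2. Meis1, a partner of Hoxa9, had 0 in all 4 libraries.

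Of 23 myeloid transcription factors, 10 were tested, with 3 above (30%) and 2 below (20%), against 9.91% and 43.6% of all tested windows. With so few genes this difference is a description only. Klf4, a factor of monocyte differentiation, had 0.405 and 0.420 in the double mutant and 0.160 and 0.190 in control, and Egr2, a macrophage-associated factor, had 0.618 and 0.570 against 0.355 and 0.390. Rxra, a nuclear receptor of myeloid cells, had 0 in both double-mutant libraries against 0.110 and 0.205, and 0.52 to 0.8 in the CSF3R libraries. Irf8, a monocyte and dendritic cell factor, had 0 in all 4 libraries, against 0.365 to 0.491 in the CSF3R libraries. Cebpe, needed for late granulocyte maturation, had 0 in all 10.

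Few genes of mature cells had enough mark to be tested. Of 12 primary granule genes and of 34 ribosomal protein genes 0 passed the filter on low coverage, and of 22 late neutrophil genes 3 did, against 16.1% of all protein-coding genes. Mmp9, a gelatinase of late granules, had 0.222 and 0.152 in the double mutant against 0.305 and 0.525 in control. The targeted Asxl1 locus and the mouse Csf3r gene had 0 in all 10 libraries, which checks neither the guide nor the transgene. Markers of other cell types are to be read against the 43.6% of all tested windows that lay below both controls. Of 5 tested stromal and endothelial genes 4 did so, and of 11 lymphoid genes 6 (54.5%) did and 1 lay above. Pax5, the B cell identity factor, had 0.455 and 0.280 against 0.984 and 0.780, whereas Ebf1, an earlier B cell factor, had 0.545 and 0.455 against 0.110 and 0.210. The lists of monocyte and dendritic (2 tested), mast cell (2) and erythroid and megakaryocyte genes (5) were too small to describe further. In that last list Itgb3, a platelet integrin, had 0.455 and 0.2 against 0 in both controls, and passed the filter only through the double-mutant libraries. Epor, the erythropoietin receptor, had 0 in both double-mutant libraries against 0.075 and 0.230.

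Genes of cytokine signalling and of the cell cycle had members on both sides. Of 6 tested JAK-STAT and cytokine genes 3 lay above (50%) and 3 below (50%), against 9.91% and 43.6% of all tested windows, and the list is too small to describe as a group. Socs2, a feedback inhibitor of cytokine receptors, had 0.370 and 0.385 in the double mutant and 0 in both controls, and Il6st, the shared receptor of the interleukin-6 family, had 0.020 and 0.030 against 0.550 and 0.560. Lifr, which pairs with it, had 0.322 and 0.275 against 0.555 and 0.430. Cdkn2a, which encodes cell cycle inhibitors and is a classical Polycomb target, had 0.035 and 0.040 against 0.426 and 0.435. Socs2, Il6st and Cdkn2a each passed limma without Asxl1 replicate 2. Ccnd1, encoding cyclin D1, had 0.625 in both double-mutant libraries against 0.305 and 0.620, and Cdkn1c, another inhibitor, had 0.020 and 0.324 against 0.050 and 0.254, which overlap. Of the 42 Polycomb and Asxl complex genes 6 were tested, with 0 above and 2 below (33.3%).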

How the data were processed

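H3K27me3, H2AK119ub and H3K4me1 were profiled by CUT&Tag. Reads had been aligned with Bowtie2 2.4.1 to mm10 and deepTools 3.5 was used, per the submitters' processing notes. Of the peak caller and its threshold nothing is stated, and depth is unknown. The authors deposited 1 peak list per library, and the deposited values are other than counts or signal: peak starts and ends, all multiples of 50 bp and at least 200 bp apart, with no height. One deposited IgG list merges 2 libraries (53972 peaks, 21.2 Mb), from the Asxl1 single mutant and the CSF3R single mutant. Neither the double mutant nor the control has an IgG library of its own. No interval or floor could be given.

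Covered fractions were computed with Python 3.11.15 (numpy 2.4.6, pandas 2.3.3) and tested with limma 3.58.1 (R 4.3.3) over 10 libraries in 4 groups. Library measures were compared by exact permutation (scipy 1.17.1). Of 200 simulated shifts in the 3513 windows, 47 of 100 of 0.4 and 83 of 100 of 0.8 were called, with 10 of 3313 others. The simulated noise was drawn independently for each window and library. Shifts common to a whole library were therefore not simulated, and these rates may not hold for the real fit. Named genes were those past the test, the 10 largest non-overlapping differences each way, up to 2 per list each way and a fixed set; 2 genes that the rule takes stay in the fit and the counts but are not reported here. The members and lists were chosen with earlier results of these data known. Alternatives varied windows, filter, short and IgG-overlapping peaks, joining, covariates, features and libraries. Chosen after seeing the data were gene ends for all genes, start sites only, and leaving out chromosome 1.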

Additional observations from a re-analysis of the deposited data

How the results depend on the processing

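With 2 libraries a group and peak positions alone, precision is set by the peak calls. IgG peaks, which come from the single mutants, overlapped 3.15% and 3.72% of the covered length in the double mutant against 2.73% and 2.72% in control. Of the 1135 alternative values for the 52 named genes that were tested, 9 in 7 genes turned direction. The cause of each shift below was not tested.

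The log2 ratio of mean width kept its sign in every alternative, with -1.04 to -0.48 when single libraries were left out. Joining peaks up to 1 kb apart left this value, covered length, the shares and the Jaccard index unchanged, so that alternative checked nothing. The log2 ratio of covered length was -0.44 to 0.0723 with single libraries left out, turning without control replicate 2. The difference in the share in peaks over 5 kb was -21.6 to -12.9 points (-7.38 with a 10 kb threshold), that in gene windows -10.6 to -4.80 (-0.23 with 2 kb windows) and that inside H2AK119ub 10.4 to 18.6. With a single library left out, where the rule needs fewer libraries, double-only regions numbered 2500 to 10049 and control-only regions 1561 to 5013; joining regions up to 5 kb apart left 564 control-only regions. The Jaccard index within groups minus that between them was 0.0907 and kept its sign in its alternatives, none of which left out a library. The double-mutant pair (0.379) lay within the range between groups (0.318 to 0.427), and the control pair stood at 0.552.

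Windows called by limma numbered 0 to 267 when single libraries were left out: 267 without Asxl1 replicate 2, 1 without double replicate 2 and 0 without any other. They numbered 411 with covered length as a covariate (88 higher, 323 lower), 80 with presence or absence (33 and 47), 58 with 2 kb windows (34 and 24), 4 without the filter and 1 with gene ends for every gene. The fit with the replicate number as a block called 0 (251 at an unadjusted p under 0.05). The deviations of same-numbered double and control libraries correlated at -0.011. With 2 libraries a group the deviations mirror each other, so this value cannot decide whether same-numbered libraries were prepared together.

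Directions turned at Hoxa9 (0.349), Hoxa11 (0.045) and Cdkn1c (-0.075) without IgG-overlapping peaks, at Wnt4 (0.004) and Zbtb46 (0.091) with 2 kb windows, at Tbx2 (-0.195) over the gene body, at Pde10a (-0.205) with gene ends, and at Cdkn1c without control replicate 1 (-0.082) or double replicate 2 (-0.132, against 0.172 without double replicate 1).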

Other observations

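Signalling genes on chromosome 1 stood beside the whole-chromosome difference. Lefty1 and Lefty2, neighbouring genes for secreted Nodal antagonists at 180935022 and 180893108 bp on that chromosome, had fractions of 0.370 and 0.195 and of 0.291 and 0.170 in the double mutant, against 0.025 and 0 and against 0 and 0.070 in control. In the CSF3R libraries, whose share of peaks on chromosome 1 was that of control, Lefty1 had 0.290 to 0.483. Elsewhere, Wnt4, a ligand of kidney and gonad development, had 0.315 and 0.090 against 0.430 and 0.630, and Fgf4, an embryonic growth factor, had 0.070 and 0.075 against 0.220 and 0.545.

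Some large H3K27me3 decreases had no matching decrease in H2AK119ub. At Hoxa9 the H2AK119ub fraction was 0.710 and 0.530 in the double mutant and 0.675 and 0.520 in control. At Gata2 it was 1 and 0.880 against 0.890 and 1. At Ush1g it was 0.0491 and 0 against 0.504 and 0.264, lower as H3K27me3 was.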
